A study of Rattus norvegicus with 9 samples.

Results

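The comparison set retinal ganglion cells given wild-type Set-β against the same kind of neuron given mCherry, a red fluorescent protein that served as the control. It used 6 of the 9 arrays of the series, the 3 titled wt-SetB (shown as wt_Set in the plots) and the 3 titled mCherry. The 3 arrays of the remaining group, myr-Set-β, entered only the estimate of the spread between arrays. Every array came from Sprague Dawley rats at postnatal day 4. All groups shared the same handling: immunopanning of the neurons on antibody-coated dishes, electroporation of the construct together with a pMAX-GFP plasmid, sorting of green cells on the following day, further culture on laminin, and RNA extraction 3 days after transfection. A cell was selected by its GFP and not by a measure of Set-β. RNA was amplified before hybridisation to Affymetrix Rat Gene 2.0 ST arrays. The titles call the arrays of a group biological replicates but do not say whether they were separate litters or cultures, so a p-value here reflects the variation among arrays alone, part of which can be technical. Neither the promoter nor the species of the Set-β construct is named in the labels or the design text.

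Retinal ganglion cells are the output neurons of the retina, and their axons form the optic nerve. Set, also called SET, TAF-I or I2PP2A, is a largely nuclear protein that binds histones as a chaperone, masks histone tails from acetylation as part of an inhibitor complex, and inhibits protein phosphatase 2A. Axon growth ability declines in ganglion cells around birth, and the question of the comparison was which genes differ when the wild-type protein is added to postnatal neurons. The values came from a table of linear intensities in which each array has the same median, and they are given here as log2 intensity. Each gene was represented by its transcript cluster of highest mean. Of 18166 genes with a single symbol, 10518 passed a filter at the median level of all clusters, a log2 intensity of 6.65.

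No transcript cluster with a single symbol carried the symbol Set, and the 575 clusters with several symbols were not assigned to genes. RefSeq lists Set as an older name of Setsip, a protein-coding copy of Set, so the Setsip cluster is the nearest feature among single-symbol clusters. Its log2 intensity was 10.70, 10.72 and 10.85 on mCherry replicates 1 to 3 and 10.34, 9.98 and 9.99 on the wt-SetB replicates. Setsip was thus not higher on any array labelled wt-SetB, and at matched signal level the difference was -0.13 ± 0.18 (SE; limma adjusted p = 0.79). The Set pseudogene Setl2 read 7.91, 8.17 and 7.75 in mCherry and 7.22, 7.00 and 7.69 in wt-SetB. Whether the probes of either cluster read the transfected construct could not be told from the tables used. The clusters examined therefore gave no check of the Set-β label, and every direction below rests on that label.

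The first difference between the arrays was in how wide their signal was spread. Between the 10th and the 90th percentile the log2 intensities spanned 4.54, 4.29 and 4.53 on mCherry replicates 1 to 3 and 4.12, 4.21 and 4.14 on the wt-SetB replicates. The groups did not overlap, with means of 4.45 ± 0.146 and 4.16 ± 0.0471 (SD, n = 3). Because this difference in range is the reason for matching genes by level, it is given as a description. Gene by gene, 8113 of 10518 genes (77.1%) were lower in wt-SetB, with a median difference of -0.29 on the log2 scale. This shift grew with the level of a gene. Among the tenth of genes with the lowest levels the median difference was 0.00 and 49.2% were lower, and among the tenth with the highest levels it was -0.57 and 96.5% were lower. A loss of the same size in every abundant transcript and a compression of the signal cannot be told apart on arrays that were each set to one median. Each gene was therefore also read against the 200 genes nearest to it in mean level, which is called the level-matched difference below.

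**Figure D1:**
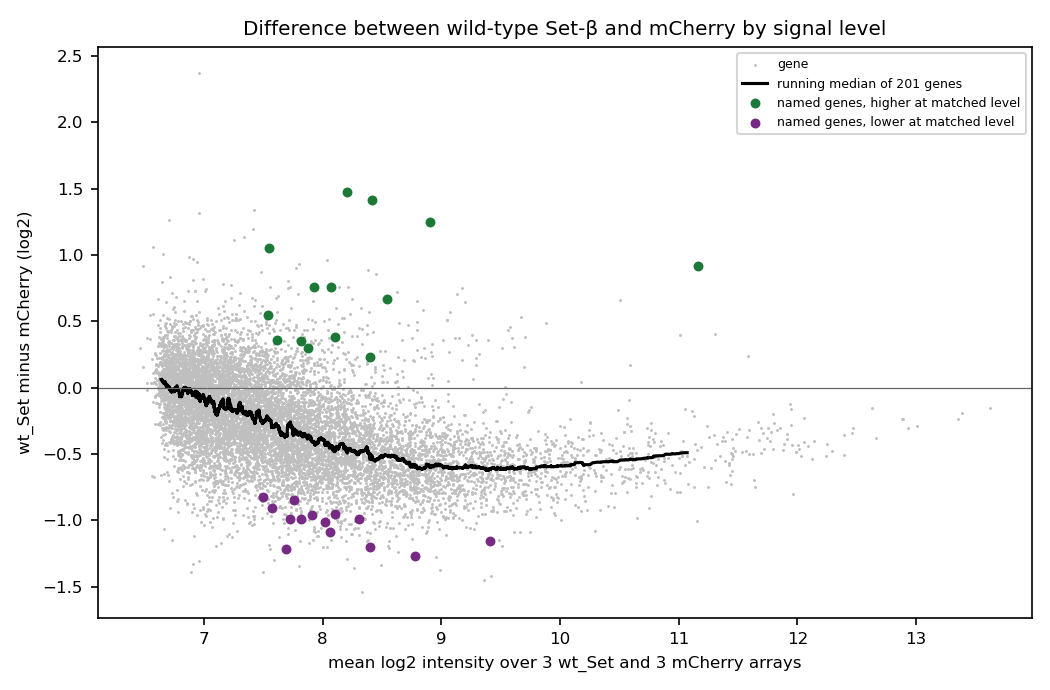
Each grey point is 1 of 10518 genes, with its mean log2 intensity over the 6 arrays on the x axis and the log2 difference of wild-type Set-β (wt_Set) minus mCherry on the y axis; the black line is a running median. The line starts near 0 at low levels and lies below -0.5 at high levels, and the genes named for a high or low level-matched difference stand above or below it.

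No cluster passed an adjusted p of 0.05. Of 18343 clusters tested with limma, 0 (0%) were called as deposited, where the smallest adjusted p was 0.447, and 0 (0%) on the level-matched scale, where it was 0.522. Before adjustment, 1865 clusters (10.2%) had p under 0.05 as deposited, 557 higher and 1308 lower, and 1558 (8.49%) level-matched, 1068 higher and 490 lower. The split between higher and lower calls depended on the scaling: the share of higher calls as deposited was 29.9%, against 62.5% after quantile normalization and 54.5% after cyclic loess, while on the level-matched scale it was 68.5%, 66.9% and 68.3%. Among single-symbol genes, 1.06% were higher and 8.72% lower at that p as deposited, and 2.75% higher and 3% lower level-matched. Without overlap between the 3 arrays of each group, 4.21% of genes were higher and 34.7% lower as deposited. On the level-matched scale 11.1% were higher and 9.75% lower without overlap. These shares are the background for the counts below, in which higher and lower give the position of the means and no gene is claimed as a call. Of the genes described below, Calb2, Gemin2, H2bc12, Ndufaf2 and Ppp2r2c had a wt-SetB mean under the level filter, and Cx3cr1 and RT1-O1 an mCherry mean under it. A gene that passed through its higher group had to differ, so the values of these 7 are descriptions. The level-matched differences of all genes had a median of -0.03, with 4821 genes higher and 5697 lower.

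Among lists of 20 or more measured genes, the mitochondrial ribosome lay lowest against genes of similar level. This ribosome translates the few proteins encoded by mitochondrial DNA, all of them parts of the respiratory chain and ATP synthase, while its own proteins are encoded in the nucleus. Of 70 listed members, 64 passed the filter, and 52 of these were lower and 12 higher, with a level-matched median of -0.27. Without overlap between groups 22 were lower and 1 higher, against the 9.75% and 11.1% of all genes, and at an unadjusted p under 0.05 there were 11 lower and 0 higher, against 3% and 2.75%. Without the level filter 58 of the 70 were lower, with a median of -0.26. The group medians by array, taken as deviations from each gene's mean, were 0.10, 0.03 and 0.24 on the mCherry replicates and -0.14, -0.11 and -0.09 on the wt-SetB replicates, so every wt-SetB array lay below every mCherry array. Leaving out each array in turn moved the list's median between -0.31 and -0.22.

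Both subunits of that ribosome had mostly lower genes. The subunit counts include mrpl11, mrpl24 and mrpl9, which RefSeq writes in lower case and which the list of 70 therefore did not hold. In the large subunit 38 of 45 genes were lower at matched level (median -0.30), and in the small subunit 17 of 22 (median -0.23). Mrpl57, of the large subunit, read 8.12, 7.36 and 8.02 on mCherry replicates 1 to 3 and 6.98, 7.05 and 7.28 on wt-SetB. All wt-SetB arrays were below all mCherry arrays. The group means differed by -0.73 as deposited and -0.57 ± 0.19 (SE) level-matched (unadjusted p = 0.017, limma adjusted p = 0.56). Mrpl22, a large-subunit protein, had the lowest level-matched difference of the list, with 8.16, 7.87 and 8.46 against 6.71, 6.84 and 7.30, a difference of -0.97 ± 0.33. Mrps30 (known also as a death-associated protein) read 8.93, 8.86 and 8.68 against 8.03, 7.77 and 7.84, and Mrpl15 read 7.5, 6.96 and 7.37 against 6.80, 6.76 and 6.53. In each of these genes the groups stayed apart, but none was a call after adjustment. The gene mrpl11 read 8.38, 8.22 and 8.58 against 7.55, 7.36 and 7.38 and was -0.63 ± 0.17 level-matched.

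The cytosolic ribosome, which makes all other proteins of the cell, did not share this position. Its 53 measured genes had a level-matched median of -0.01, with 25 higher and 28 lower, and by array the list split by replicate number and not by group: replicate 1 was at -0.19 in mCherry and -0.21 in wt-SetB, and the other arrays were between 0.05 and 0.14. In the respiratory chain itself the structural subunits lay close to other genes of their level. Complex I, the NADH dehydrogenase, had a median of -0.07 (19 of 32 lower), complexes II and III together -0.03 (10 of 17 lower), complex IV, cytochrome c oxidase, 0.07 (15 of 21 higher) and ATP synthase -0.02 (13 of 19 lower). Complexes II and III and ATP synthase changed sign in some of the alternatives tried, and leaving out each array moved the median of complex I between -0.13 and -0.02 and that of complex IV between 0.02 and 0.10. Complex I assembly factors, which build that complex and are not part of it, were lower in 11 of 11 measured genes with a median of -0.34. At matched level 5 of them were lower without overlap between groups, against 9.75% of all genes. Ndufaf2, an assembly factor, read 7.34, 6.95 and 7.51 in mCherry and 6.07, 6.76 and 6.43 in wt-SetB, a level-matched difference of -0.84 ± 0.36. Ecsit, which acts in complex I assembly and in innate immune signalling, read 7.06, 7.38 and 7.52 against 6.89, 6.64 and 6.76 (-0.46 ± 0.19).

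Aifm1 encodes the apoptosis-inducing factor, a protein of the mitochondrial inner membrane that also supports respiratory chain assembly and moves to the nucleus in dying cells. It had the smallest p of all listed mitochondrial genes. Its log2 intensity was 7.73, 7.55 and 7.67 on mCherry replicates 1 to 3 and 6.87, 6.92 and 6.94 on wt-SetB, with little spread within either group. The difference was -0.74 ± 0.14 as deposited and -0.59 ± 0.12 level-matched (unadjusted p = 0.00105, limma adjusted p = 0.56). The other 9 measured members of the mitochondrial death list overlapped between groups at matched level, and cytochrome c (Cycs) differed by -0.13. Among Bcl2 family members and caspases, 10 of 15 were lower, with a median of -0.08.

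Promoters of the mitochondrial ribosome genes are shown because these genes lay low together. RefSeq promoter sequences of build GRCr8, 250 bases before to 50 after the start, matched 54 of the 64 measured genes. Each was searched on both strands for an ETS motif (CCGGAAG) and a YY1 motif (AAGATGGC). The ETS motif stood in 35.2% of the 54, against 17.0% of 8585 promoters of all measured genes and 9.22% of 27457 promoters in the table. The YY1 motif stood in 25.9%, against 5.49% and 3.44%. The motifs were common in the list, but they did not sort its members: the level-matched median was -0.23 in members with the ETS motif and -0.30 in members without it, and -0.25 and -0.28 with and without the YY1 motif. Over all measured genes it was -0.09 with the ETS motif and -0.02 without. The sequences below run from 120 bases before the start to 30 from it on, with either motif in capitals, for Mrpl57 (chr15:36086337-36086486, plus strand), Mrpl22 (chr10:42845790-42845939, plus strand), Mrps30 (chr2:52195875-52196024, minus strand) and Mrpl27 (chr10:80092225-80092374, plus strand).
Mrpl57: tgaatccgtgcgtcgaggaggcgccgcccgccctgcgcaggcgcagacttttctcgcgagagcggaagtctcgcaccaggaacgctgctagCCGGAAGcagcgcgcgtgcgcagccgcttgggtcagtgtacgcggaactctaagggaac
Mrpl22: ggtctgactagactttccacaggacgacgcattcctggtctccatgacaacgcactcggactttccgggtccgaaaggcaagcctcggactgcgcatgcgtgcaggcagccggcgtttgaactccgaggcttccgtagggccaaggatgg
Mrps30: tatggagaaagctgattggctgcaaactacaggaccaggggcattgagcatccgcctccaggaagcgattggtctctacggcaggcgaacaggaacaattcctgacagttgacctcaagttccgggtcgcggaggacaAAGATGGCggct
Mrpl27: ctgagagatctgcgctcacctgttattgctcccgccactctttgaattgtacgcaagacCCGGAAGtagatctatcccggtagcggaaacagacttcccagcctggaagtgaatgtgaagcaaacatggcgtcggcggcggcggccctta
The ETS motif begins 29 bases before the start in Mrpl57 and 61 bases before it in Mrpl27. The YY1 motif of Mrps30 begins 18 bases after the start, and Mrpl22 held neither motif in the 300 bases searched. Mrpl27 read 9.17, 8.93 and 9.20 in mCherry and 7.92, 8.17 and 8.03 in wt-SetB, so it and Mrpl22 lay low with and without such a motif.

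Histone chaperones, the class to which Set belongs, had the next lowest median among lists of 20 or more measured genes. They hand histones on during transcription, replication and repair. Of 32 with a cluster, 25 passed the filter, and 21 of these were lower at matched level with a median of -0.24. Without overlap, 7 were lower and 0 higher, against 9.75% and 11.1% of all genes. By array the list's deviations were 0.16, 0.01 and 0.10 in mCherry and 0.05, -0.12 and -0.18 in wt-SetB, so wt-SetB replicate 1 lay within the mCherry range. The 3 measured Anp32 genes, acidic nuclear proteins that share histone binding, phosphatase 2A inhibition and a protein complex with Set, were all lower, between -0.73 and -0.28. Anp32a read 9.26, 8.61 and 9.90 in mCherry and 8.06, 7.95 and 8.05 in wt-SetB. The wt-SetB arrays were close together and all below the lowest mCherry array. The group means differed by -1.24 ± 0.53 as deposited and -0.73 ± 0.32 level-matched (limma unadjusted p = 0.0513). Anp32e, a chaperone that removes H2A.Z, read 9.64, 8.93 and 9.68 against 8.44, 8.28 and 8.29, a level-matched difference of -0.55 ± 0.21. Supt16h, the large subunit of the FACT chaperone, read 9.05, 8.53 and 8.85 against 8.29, 8.10 and 7.64 (-0.33 ± 0.17). The Nap1 family, relatives of Set by fold, gave 3 of 5 lower with a median of -0.22.

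Genes of histone acetylation, which Set restrains, had a level-matched median of -0.02, with 15 of 26 lower. The deacetylases Sirt6 and Hdac2, both of which remove acetyl groups, differed by -0.47 and -0.41, and Hdac1 by -0.61. Of the histone genes themselves, 16 of 26 were lower, with a median of -0.04 and a wide range. H2bc12, a histone H2B gene, read 7.70, 7.72 and 7.85 in mCherry and 6.30, 6.99 and 6.63 in wt-SetB, a level-matched difference of -1.01 ± 0.38. In the other direction H1f1, a linker histone gene, read 7.66, 7.96 and 7.62 against 8.31, 8.07 and 7.88, where mCherry replicate 2 lay above wt-SetB replicate 3 (0.68 ± 0.28). Genes of this family are near copies of each other, so their signals may be shared between members.

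Subunits of protein phosphatase 2A, the phosphatase that Set inhibits, were lower in 14 of 21 genes, with a median of -0.11 that was -0.05 without mCherry replicate 1 or wt-SetB replicate 3. Catalytic and scaffold subunits stayed close to other genes of their level, with differences between -0.12 and 0.16. The B55 regulatory subunits, which direct the enzyme to substrates such as tau, were all 4 lower, between -0.62 and -0.17, and the B56 subunits lay between -0.16 and 0.06. Ppp2r2d read 7.90, 7.67 and 7.44 in mCherry and 7.09, 6.97 and 6.74 in wt-SetB, without overlap (-0.62 ± 0.22, unadjusted p = 0.022). Ppp2r2c, a brain B55 subunit, read 7.03, 6.84 and 6.80 against 6.46, 6.74 and 6.22 (-0.42 ± 0.18). The neuronal Ppp2r2b overlapped between groups, with 8.41, 7.34 and 7.78 against 7.39, 7.51 and 6.78. With a filter at the 75th percentile of level the list's median was 0.00.

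In the transcription machinery, general factors of RNA polymerase II were lower in 29 of 41 genes (median -0.12, or -0.19 without mCherry replicate 2). Of the 41, 8 were lower and 1 higher without overlap, against 9.75% and 11.1% of all genes. Taf9b and its paralogue Taf9, subunits of the promoter-binding complex TFIID, both lay low. Taf9b read 8.53, 7.55 and 8.01 in mCherry and 7.08, 6.99 and 7.28 in wt-SetB (level-matched -0.65 ± 0.19), and Taf9 differed by -0.51 ± 0.16. A further Taf9 cluster of lower level gave -0.59 as deposited, against -1.05 for the cluster used. Gtf2f2, a subunit of TFIIF, read 7.28, 7.86 and 7.48 against 6.61, 6.62 and 6.74 (-0.73 ± 0.22). Mediator, which links transcription factors to the polymerase, gave a median of -0.06, with 16 of 29 lower and 13 higher. Without overlap 7 of the 29 were higher and 2 lower, against 11.1% and 9.75% of all genes. The median kept its sign in 17 of 21 alternatives and was 0.07 without both replicate 1 arrays. Within Mediator, Med6, a head subunit, lay lower at 7.76, 7.67 and 7.46 against 6.93, 6.67 and 7.00 (-0.63 ± 0.16, unadjusted p = 0.00325), while Med15 was at 0.29.

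Splicing and RNA-binding genes were lower in 76 of 111 (median -0.09), but only 8 were lower and 6 higher without overlap, which is near or below the share over all genes. The hnRNP proteins, which coat nascent RNA, gave 16 of 18 lower with a median of -0.12 and 1 gene without overlap. Snrpepl2, named as a copy of the snRNP core gene for protein E, read 8.23, 7.92 and 8.39 against 6.66, 7.33 and 7.51 (-0.74 ± 0.29), and Sf3a3, a subunit of the splicing factor SF3a, read 9.12, 8.14 and 8.70 against 7.80, 7.94 and 7.22 (-0.64 ± 0.26). In the assembly of snRNPs by the SMN complex, Gemin2, the binding partner of SMN, read 7.10, 6.90 and 7.52 in mCherry and 6.38, 5.92 and 6.49 in wt-SetB. The groups stayed apart, and their means differed by -0.88 ± 0.21 level-matched. Clns1a, a chaperone of the Sm proteins in the same pathway, read 9.08, 8.31 and 9.02 against 7.90, 7.91 and 7.65 (-0.52 ± 0.16). Wdr77, the partner of the methyltransferase that prepares Sm proteins, was at 0.33. The list's median of -0.09 (8 of 11 lower) ranged from -0.15 to -0.0017 when each array was left out.

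A rule applied to all genes with a mean log2 intensity of at least 7.5 gave the genes whose arrays did not overlap on either scale, ranked by p in the level-matched fit. Of 5435 genes at that level, 388 were eligible in the lower direction and 110 in the higher. The rule also asked for no overlap as deposited, where 34.7% of all genes were lower and 4.21% higher. At matched level alone 9.75% were lower and 11.1% higher, so the eligible counts do not compare the directions at matched level. The 14 named as lower differed at matched level by -0.94 to -0.52, each with a level-matched limma adjusted p of 0.56. Cep83, a protein of the basal body needed to anchor cilia, read 8.62, 7.89 and 8.38 in mCherry and 7.57, 6.92 and 6.76 in wt-SetB, and had the largest difference of the 14 (-0.94 ± 0.24). Cibar1, a further cilium-associated gene, read 8.72, 8.38 and 8.64 against 7.5, 7.90 and 7.48 (-0.56 ± 0.16). Glt8d1, a glycosyltransferase of the Golgi, had the smallest p, with 8.06, 7.80 and 7.88 against 7.24, 7.13 and 6.89 (-0.63 ± 0.15, unadjusted p = 0.00297). Atp6v1e1, a subunit of the proton pump that acidifies lysosomes and synaptic vesicles, was the most abundant, with 10.19, 9.74 and 10.05 against 8.90, 9.01 and 8.59. The level-matched difference of Atp6v1e1 was -0.56 ± 0.14, whereas the 19 measured V-ATPase genes had a median of -0.04.

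Among the other lower genes, Lmo4 and Armcx3 have known roles in neurons. Lmo4, a LIM-domain transcriptional cofactor, read 8.52, 8.05 and 8.99 in mCherry and 7.61, 7.42 and 7.51 in wt-SetB (-0.66 ± 0.19). Armcx3, a mitochondrial outer membrane protein that acts in mitochondrial transport along axons, read 9.24, 8.12 and 8.45 against 7.57, 7.51 and 7.48 (-0.71 ± 0.21). Tuba4a, an alpha-tubulin, read 9.02, 8.61 and 8.77 against 7.84, 7.85 and 7.75 (-0.52 ± 0.14), with the wt-SetB arrays almost at one value. The tubulin list as a whole was at 0.02, with 8 of 15 higher. Cenpc, a centromere protein, Zcchc17, an RNA-binding nucleolar protein, and Bcas2, a spliceosome component, differed by -0.76, -0.75 and -0.56. Aga, a lysosomal enzyme that degrades glycoproteins, differed by -0.74, and Tmem60, a membrane protein, by -0.71. The 5 genes next in rank, Clns1a, Stambp, Mapk8ip2, Fam133b and Taf9, lay between -0.70 and -0.51.

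**Figure D2:**
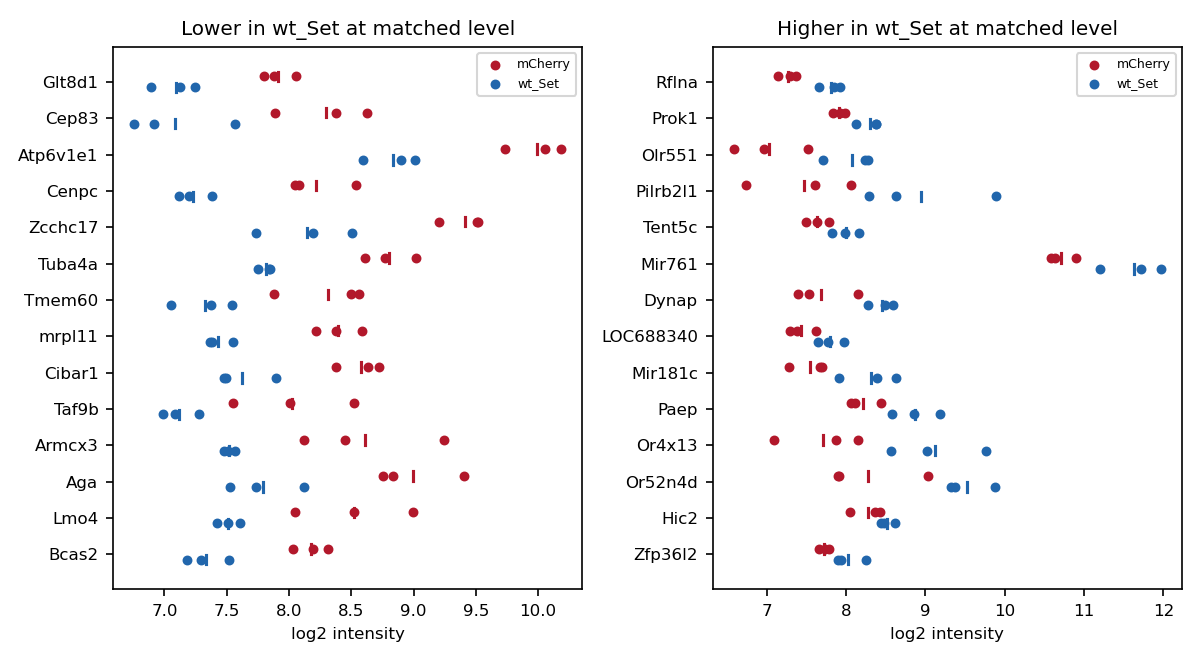
Points are log2 intensities of single arrays, red for mCherry and blue for wild-type Set-β, and short vertical bars are group means (n = 3). In the 14 genes of each panel the arrays of the groups do not overlap, which is part of the rule that chose them, and no gene passed adjustment: the limma adjusted p was 0.447 to 0.475 as deposited, the plotted scale, and 0.56 level-matched.

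Genes of axon growth and of ganglion cell identity were near other genes of their level. Stmn2, a microtubule regulator of growing neurites and the most abundant of the ganglion cell markers, read 12.19, 11.33 and 11.74 in mCherry and 11.62, 11.21 and 10.57 in wt-SetB. Gap43, a growth cone protein, read 12.07, 11.34 and 11.45 against 11.54, 11.04 and 10.05, and Tubb3, a neuronal tubulin, read 10.84, 9.96 and 10.48 against 10.11, 10.03 and 9.76. The groups overlapped in each, and wt-SetB replicate 3 was the lowest array for each. All 16 ganglion cell markers passed the filter, so the labelled cell type is present on the arrays, and 12 were lower at matched level, with a median of -0.07 that became 0.13 without wt-SetB replicate 3. Thy1, a surface protein of ganglion cells, was 9.76, 9.25 and 9.66 against 9.65, 9.17 and 9.62, and stood higher than other genes of its level on all wt-SetB arrays (0.51 ± 0.23, unadjusted p = 0.057). Growth cone proteins had a median of -0.14 (18 of 24 lower), which became 0.03 without wt-SetB replicate 3. Among them Tmod2, a neuronal actin-capping protein, read 9.52, 8.88 and 9.10 against 8.45, 8.05 and 7.35 (-0.72 ± 0.25).

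Other neuronal lists also lay near 0. Microtubule-associated proteins had a median of -0.02, synaptic vesicle genes 0.01, transport motors -0.05, axon guidance -0.06, voltage-gated channels -0.08 and known brakes on axon regeneration -0.03. These medians changed sign in at least 1 alternative. Krüppel-like factors, of which some promote and others limit axon growth, gave 0.09, with 12 of 20 higher and 1 gene without overlap in each direction. Socs3, an inhibitor of JAK-STAT signalling that limits optic nerve regeneration, read 7.34, 7.35 and 7.39 in mCherry and 7.43, 7.62 and 7.78 in wt-SetB, a level-matched difference of 0.46 ± 0.16. In the sterol pathway the median was 0.04, yet Fdps, the synthase of farnesyl diphosphate, read 9.57, 9.27 and 8.65 against 8.10, 7.76 and 7.61 (-0.87 ± 0.28), and Cyp51, a demethylase of the same pathway, read 9.16, 8.02 and 8.67 against 7.88, 7.44 and 7.54 (-0.60 ± 0.23).

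**Figure D3:**
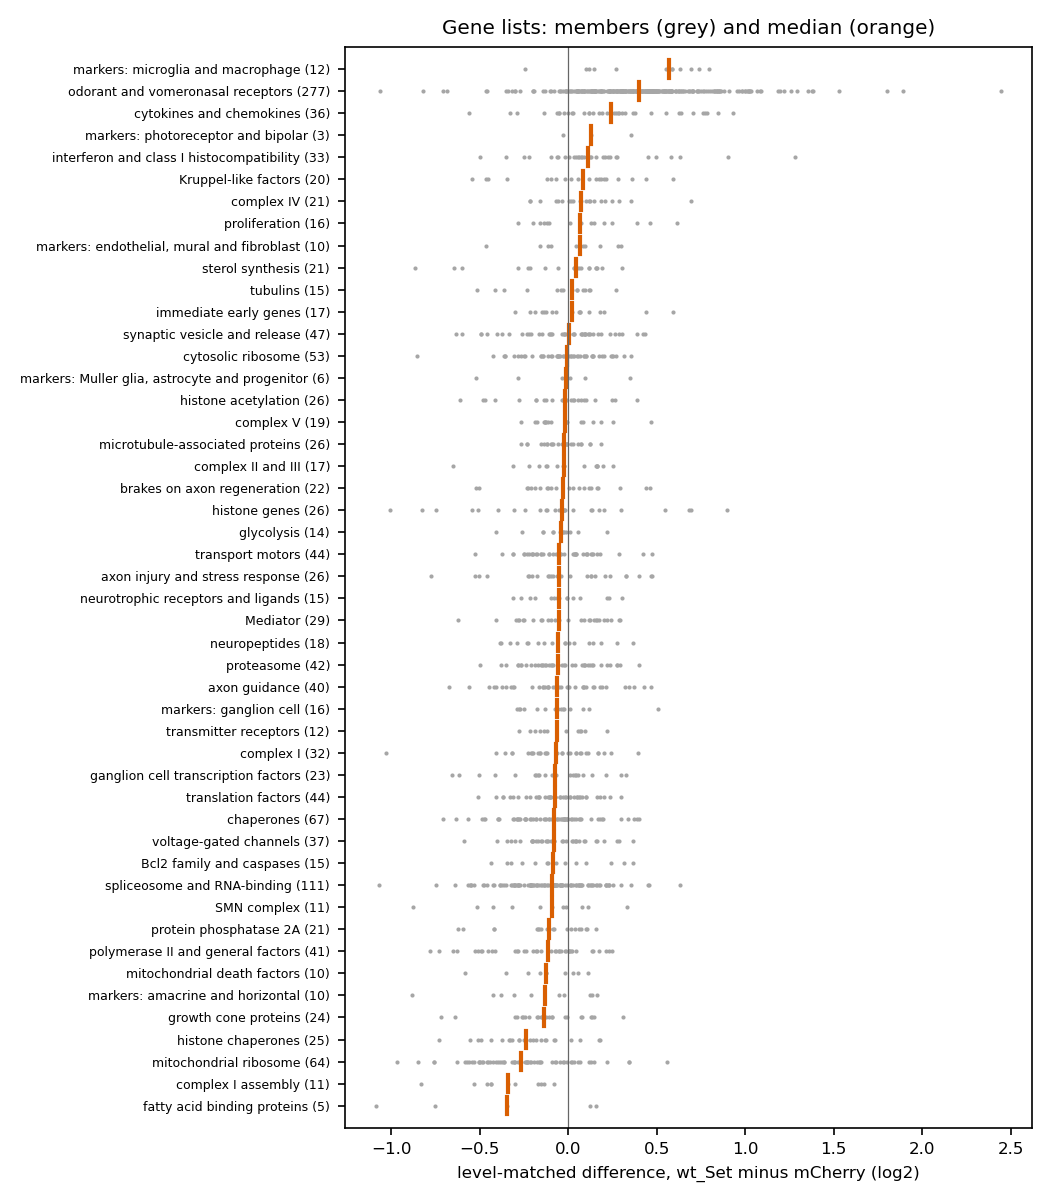
Grey points are level-matched log2 differences, wild-type Set-β minus mCherry, of the genes of each list that passed the level filter (number in brackets), and orange bars are list medians. Mitochondrial ribosome and complex I assembly factors lie among the lowest medians, microglial markers and odorant receptors among the highest, and most neuronal lists lie near 0; the median of fatty acid binding proteins rests on 5 genes.

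In the higher direction 110 of the 5435 genes were eligible under the same rule. The 14 named lay between 0.60 and 1.89 at matched level, each with a level-matched limma adjusted p of 0.56. Rflna, a refilin that bundles actin with filamin, had the smallest p, with 7.29, 7.15 and 7.37 in mCherry and 7.93, 7.85 and 7.66 in wt-SetB (0.75 ± 0.16, unadjusted p = 0.00145). Prok1, a secreted prokineticin, read 7.92, 7.83 and 7.98 against 8.38, 8.13 and 8.38 (0.79 ± 0.23). Hic2, a transcriptional repressor, read 8.43, 8.05 and 8.37 against 8.62, 8.44 and 8.47 (0.70 ± 0.23), where the highest mCherry and lowest wt-SetB arrays were nearly equal. Zfp36l2, a protein that destabilises AU-rich mRNAs, read 7.79, 7.65 and 7.74 against 7.93, 7.90 and 8.25 (0.60 ± 0.20). A dimmer Zfp36l2 cluster below the filter gave -0.30 as deposited. Tent5c, a poly(A) polymerase, differed by 0.63. The remaining named genes were features seldom studied in neurons: Pilrb2l1, Dynap, Paep, the annotated V segment LOC688340, the hairpins Mir761 and Mir181c, and the odorant receptors Olr551, Or4x13 and Or52n4d.

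Hairpins of microRNAs, the stem-loop precursors that are cut to mature microRNAs, were shown by their sequences because Mir181c lies beside a second hairpin with the same seed. The array reads transcripts at the hairpin locus, not the mature microRNA. From RefSeq (GRCr8), the mature 5p arms of Mir181c (chr19:40888314-40888335, plus strand) and Mir181d (chr19:40888484-40888506, plus strand) share the seed ACAUUCA, in capitals here.
rno-miR-181c-5p: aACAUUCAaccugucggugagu
rno-miR-181d-5p: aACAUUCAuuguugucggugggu
Mir181c read 7.28, 7.70 and 7.67 on mCherry replicates 1 to 3 and 8.62, 8.40 and 7.92 on wt-SetB, and Mir181d read 8.70, 9.09 and 8.84 against 9.40, 9.78 and 9.38. Both loci were higher on all wt-SetB arrays. The group means differed by 0.76 ± 0.25 and 0.64 ± 0.24 as deposited (limma adjusted p = 0.447 for each) and by 1.13 ± 0.37 and 1.19 ± 0.49 level-matched. Mir761 was the brightest of the 14 genes named as higher by the rule, with 10.64, 10.89 and 10.59 against 11.20, 11.72 and 11.97 (0.92 ± 0.24 as deposited). The other Mir181 loci, Mir181a-1, Mir181a2, Mir181b1 and Mir181b2, were below the level filter. The higher position was not particular to the Mir181 pair. Of 363 hairpins 97 passed the filter, and 79 of those were higher at matched level, with a median of 0.38. Without overlap 39 were higher and 0 lower, against 11.1% and 9.75% of all genes. A dim hairpin could pass the filter through its higher group, and no median was taken over all 363, so these values are descriptions.

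Odorant and vomeronasal receptors, which neurons of the retina are not known to use as a class, served as a mark of background signal. Their level-matched position was close to that of the hairpins, with a median of 0.40 and 249 of 277 higher. Without overlap 91 were higher and 2 lower, against 11.1% and 9.75% of all genes. The level filter kept 277 of 1360, and over all 1360 the median was 0.14, with 940 higher. As deposited, the median log2 intensity of the 277 was 6.81, 7.30 and 7.05 on mCherry replicates 1 to 3 and 7.39, 7.27 and 7.28 on wt-SetB, so mCherry replicate 2 lay within the wt-SetB range. At matched level the groups did not overlap, with median deviations of -0.47, 0.06 and -0.23 on mCherry and 0.26, 0.14 and 0.18 on wt-SetB. The part of this background in the higher position of the hairpins, of the 3 named odorant receptors and of other features was not tested.

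Immune genes were the remaining group on the higher side at matched level. As deposited, cytokines and chemokines had a median of 0.05, with 20 higher and 16 lower. Interferon and class I histocompatibility genes had one of -0.05, with 15 higher and 18 lower. Of 36 measured cytokines and chemokines, 28 were higher at matched level (median 0.24), and over all 52 listed the median was 0.19. Of the 36, 7 were higher and 0 lower without overlap, against 11.1% and 9.75% of all genes. Cxcl2, a neutrophil chemokine, read 9.18, 8.56 and 9.60 in mCherry and 9.57, 9.23 and 9.63 in wt-SetB. The intensities overlapped, while at matched level every wt-SetB array was above every mCherry array. The level-matched means differed by 0.93 ± 0.20 (unadjusted p = 0.00154, limma adjusted p = 0.56). Ccl5, a T cell chemokine, read 7.46, 7.71 and 7.44 against 8.05, 7.95 and 8.03 (0.79 ± 0.33), and Tnf, an inflammatory cytokine, read 6.82, 7.21 and 7.60 against 7.44, 7.68 and 7.66 (0.55 ± 0.24). By array, the list's deviations were -0.58, -0.03 and 0.08 in mCherry and 0.02, 0.16 and 0.28 in wt-SetB, so mCherry replicate 1 was far below the others and mCherry replicate 3 lay among the wt-SetB arrays. Interferon and class I histocompatibility genes had a median of 0.11 (25 of 33 higher), which became 0.02 without wt-SetB replicate 2, 0.06 without replicate 3 and 0.23 without replicate 1. In that list RT1-O1, a class I gene of a family with near-identical copies, read 6.43, 5.65 and 6.14 against 6.69, 7.81 and 7.52, while Irf2, a repressor of interferon genes, read 7.88, 7.45 and 7.86 against 7.12, 6.96 and 7.13 (-0.50 ± 0.16).

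Markers of microglia and macrophages, which also produce such cytokines, moved with these genes. Of 12 measured markers 11 were higher at matched level, with a median of 0.57 that became 0.26 without mCherry replicate 1 and 0.34 without wt-SetB replicate 2. Without overlap 3 of the 12 were higher and 0 lower, against 11.1% and 9.75% of all genes. By array the list's deviations were -0.78, 0.06 and 0.09 in mCherry and -0.07, 0.45 and 0.35 in wt-SetB. The wt-SetB replicate 1 array thus lay below mCherry replicates 2 and 3. Without the filter 15 of all 18 listed were higher, with a median of 0.17. Cx3cr1, the fractalkine receptor that defines microglia, read 6.32, 6.90 and 6.47 in mCherry and 7.12, 7.35 and 7.39 in wt-SetB (0.80 ± 0.21). C1qa, a complement chain, read 6.57, 7.46 and 6.92 against 7.65, 7.68 and 7.49 (0.74 ± 0.28), and Trem2, a microglial receptor, read 7.13, 7.49 and 7.89 against 7.69, 7.82 and 7.89 (0.58 ± 0.24). On the linear scale the summed intensity of the 18 markers overlapped between groups, with 2304, 3052 and 3734 on the mCherry replicates and 2485, 4042 and 3462 on the wt-SetB replicates. Fewer cells of a type and less RNA per cell cannot be told apart in these bulk samples. The part of microglia or of background signal in the cytokine values was not tested.

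**Figure D4:**
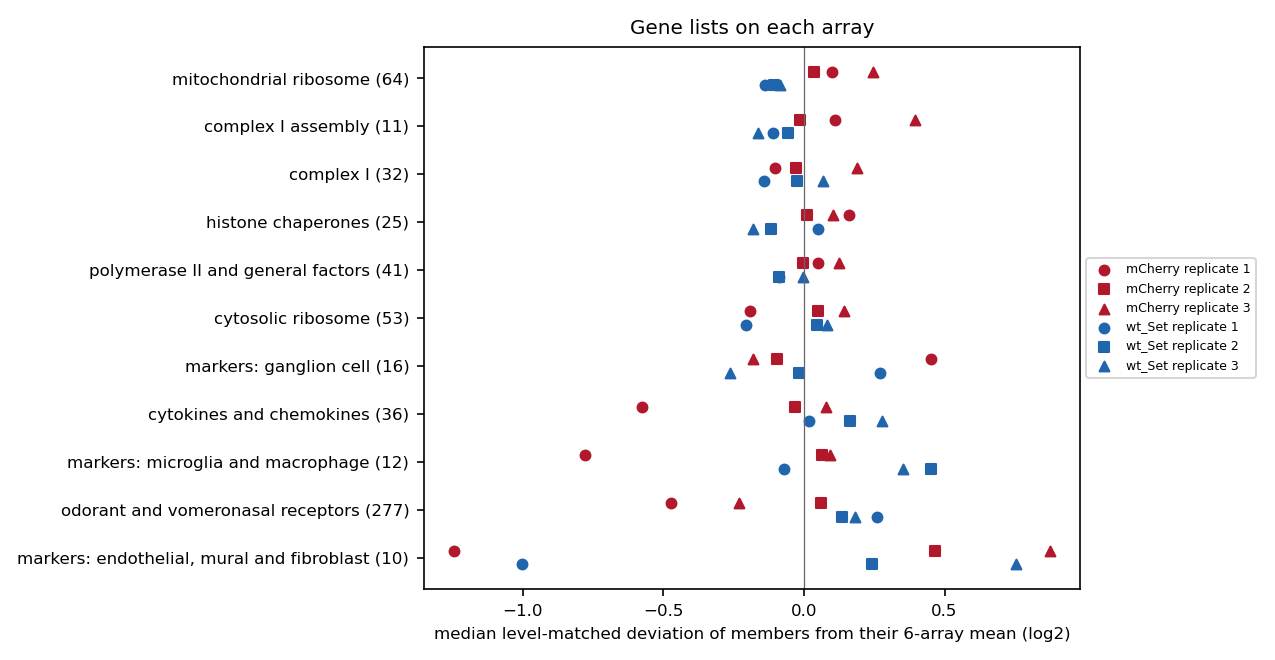
Each symbol is the median level-matched deviation (log2) of a list's genes from their own 6-array mean on 1 array, red for mCherry and blue for wild-type Set-β, with circles, squares and triangles for replicates 1, 2 and 3. Mitochondrial ribosome genes and odorant receptors separate the groups, in opposite directions. The cytosolic ribosome follows the replicate number, and mural and fibroblast markers are low on both replicate 1 arrays.

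Markers of other cell types were summed on each array. Those of endothelial, mural and fibroblast cells came to 1491 and 1423 on replicate 1 of mCherry and of wt-SetB, and to between 8480 and 15208 on the other 4 arrays. Tagln, a smooth muscle and pericyte protein, read 7.93, 12.40 and 12.62 in mCherry and 7.34, 11.89 and 11.89 in wt-SetB, and Fn1, fibronectin, read 7.41, 10.90 and 11.47 against 6.80, 10.15 and 10.79. Both replicate 1 arrays thus stood apart from the rest in the same way. Ganglion cell markers summed to 24678, 13934 and 17293 in mCherry and 15866, 12580 and 8555 in wt-SetB, and glial and progenitor markers to between 2771 and 6574 in mCherry and between 1937 and 5089 in wt-SetB. Amacrine and horizontal cell markers summed to 2709, 2069 and 2487 in mCherry and 2020, 1947 and 1739 in wt-SetB, without overlap between the groups. On that deposited scale 34.7% of all genes were lower without overlap too. At matched level the 10 such markers past the filter overlapped by array. Their median deviations were 0.34, -0.04 and -0.02 in mCherry and 0.06, -0.0047 and -0.23 in wt-SetB. Among these markers Calb2, calretinin, which ganglion cells also express, was at 7.47, 6.67 and 7.96 against 6.60, 6.17 and 6.53 (-0.88 ± 0.30). Of the photoreceptor and bipolar markers, only 3 of 17 were past the filter. Without both replicate 1 arrays, an alternative chosen after seeing the data, the level-matched median was -0.25 for the mitochondrial ribosome (50 of 64 lower), -0.37 for complex I assembly (10 of 11 lower) and -0.24 for histone chaperones (20 of 25 lower). It was 0.25 for cytokines and chemokines (24 of 36 higher), 0.47 for microglial markers (12 of 12 higher) and 0.26 for odorant receptors (205 of 277 higher).

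**Figure D5:**
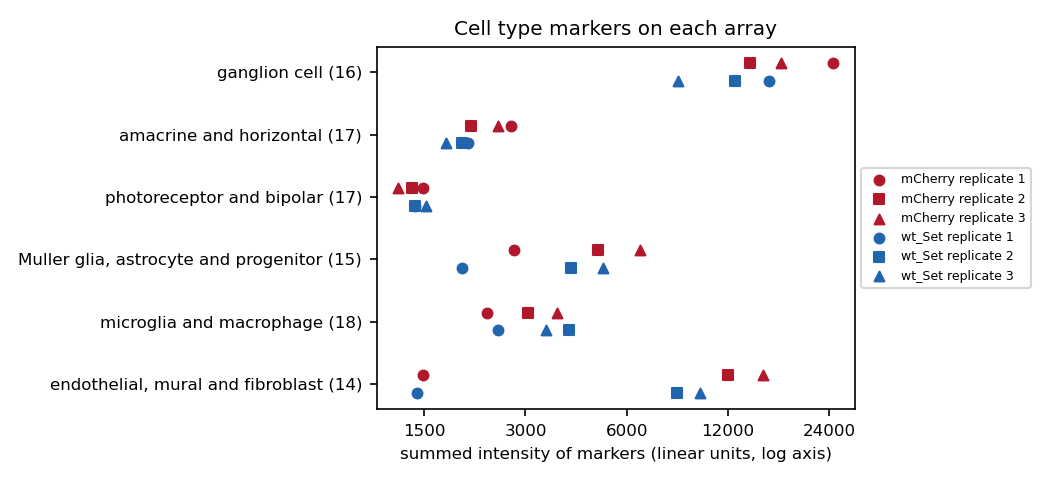
Symbols are the summed linear intensity of each cell type's markers on 1 array, on a log axis, red for mCherry and blue for wild-type Set-β, with circles, squares and triangles for replicates 1, 2 and 3. Endothelial, mural and fibroblast markers are at 1491 and 1423 on the replicate 1 arrays and at 8480 or above on the other 4, and microglial markers overlap between the groups.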

How the data were processed

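Amplified RNA was hybridised to 1-colour arrays, and the values were made with RMA in Affymetrix Expression Console, per the submitters' processing notes, which give no version. The deposited values are intensity on a linear scale, which per the labels' design text the authors normalized to each sample's median, so each array had a median of 100. Of 36685 clusters, 18511 carried 1 symbol, 575 several and 17599 none in the platform annotation, and 18394 matched the RefSeq gene table (GRCr8, for names only). In 1401 clusters the values were identical to another cluster's. Log2 values were taken in R 4.3.3 and fitted with limma 3.58.1 (lmFit, eBayes) on all 9 arrays as group means, two-sided, with Benjamini-Hochberg adjustment over 18343 clusters at or above the median cluster mean. The level-matched scale subtracted, per array, the median deviation of the 200 single-symbol genes nearest in 6-array mean level. Since that level includes a gene's own wild-type values, level-matched differences are somewhat widened. The fit was tested on simulated data. Motifs were matched as exact letters.

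Named genes were, per direction, the 14 of smallest level-matched p among genes with a mean of at least 7.5 whose arrays did not overlap on either scale, the 5 next by p, given by their range, up to 4 members of each described list by p, and the most abundant cell type markers. Members named beyond this, such as Mir181d, Cycs, Mrpl27, Setl2 and Setsip, were chosen after their values were seen. The members and lists were chosen with earlier results of these data known. The number of arrays limits the precision, as there is no read depth.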

Additional observations from a re-analysis of the deposited data

How the results depend on the processing

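The count of 0 clusters past an adjusted p of 0.05 held under all alternatives run, on both scales. The 1865 clusters at an unadjusted p under 0.05 as deposited became 3043 with all clusters kept, 885 when filtered at the 75th percentile, 4262 with only the wt_Set and mCherry arrays and 1137 with single-symbol genes only. The 1558 level-matched ones became 2731, 713, 2972 and 830 in that order. Filters and gene choice change how many clusters are tested; the cause of the rise with 6 arrays was not tested. Leaving out each array in turn gave 880 to 3862 clusters as deposited and 861 to 2731 level-matched, lowest without mCherry replicate 1 (880) and wt_Set replicate 3 (861), and highest in both without myr_Set replicate 1. Without both replicate 1 arrays, chosen after seeing the data, there were 628 and 672. The median difference of all genes, -0.29, was -0.11 after quantile normalization, -0.12 after cyclic loess, -0.11 with all clusters kept and -0.47 when filtered at the 75th percentile. Leaving out each array it was -0.36 to -0.21. None of the 28 named genes changed direction in the alternatives that kept it, 21 for 25 of them and 20 for Glt8d1, Cenpc and Taf9b, and their smallest adjusted p was 0.14. The rule that chose these genes required arrays without overlap on both scales. Their direction was thus largely fixed by the choice, and its stability is no check of them. The median of endothelial, mural and fibroblast markers went from 0.06 to -0.62 without mCherry replicate 1 and to 0.59 without wt_Set replicate 1.

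Arrays that share a replicate number did not all deviate together: the correlations of their deviations between mCherry and wt_Set were 0.383, 0.022 and 0.273. Between arrays of different number the correlations ran from -0.37 to 0.16, so replicates 1 and 3 were above that range. The titles do not say whether a number marks a shared culture, and the main fit did not take the numbers as pairs. With the replicate block in the fit, 0 clusters passed an adjusted p of 0.05, and 1937 as deposited and 1644 level-matched had an unadjusted p under 0.05.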
